A study of Mus musculus with 6 samples.

Results

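The genes described here are 9 of a list of 10 genes of mitophagy and autophagosome formation, namely Bnip3, Bnip3l, Fundc1, Pink1, Ulk1, Map1lc3a, Map1lc3b, Gabarapl1 and Sqstm1. They were chosen by gene symbol, as genes of a process that loss of iron is known to trigger. The choice, like that of the gene lists below, was made with earlier results of these data known. All 9 were found among the 24422 symbols of the count tables, and all 9 passed the filter on low counts, which left 15145 genes. The kidneys came from C57BL/6 pups that were wild type and labelled as post-natal day 15. The 3 control pups were born to dams kept on a diet with 220 ppm iron, and the 3 pups with nutritional iron deficiency (FeD) were born to dams kept on a synthetic diet with 2 to 6 ppm iron. Each diet was started before mating and continued through pregnancy and nursing, so the pups of a group share the diet of the dam, and a separate library was made from the kidney of each pup. The labels do not give the litters. A legend of the study speaks of littermate controls for its models of iron deficiency, but the labels put the 2 diets in separate dams, so differences between litters cannot be told apart from the diet, and P values measure the spread between these 6 kidneys.

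Autophagy encloses cell material in a double membrane, the autophagosome, which then fuses with the lysosome. The ULK1 kinase starts the process, the lipid-linked ATG8 proteins (the LC3 and GABARAP families) coat the growing membrane, and receptors such as SQSTM1 tether cargo to that coat. In mitophagy the cargo is a mitochondrion, marked either by receptors in its outer membrane (BNIP3, BNIP3L, FUNDC1) or through the kinase PINK1, which gathers on damaged mitochondria and leads to their tagging with ubiquitin. BNIP3 is a classical target of the hypoxia inducible factors (HIF), whose degradation requires iron, and autophagy is known to be active in the mitochondria-rich tubules of the kidney.

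Counts on genes totalled 16189041 to 20374327 in control kidneys and 13732173 to 20853293 in FeD kidneys. FeD kidney 3 differed more from the other FeD kidneys (chi-square of the counts divided by its degrees of freedom, 24 and 30.4) than these differed from each other (11.5). Every pair of control kidneys had a lower value, 3.77 to 7.36. The results that turn on FeD kidney 3 are given with and without it. Kidney markers were abundant in every library. The 12 proximal tubule markers summed to between 11898 and 12813 CPM (counts scaled to a common library size) in control kidneys. In FeD kidneys they summed to between 5665 and 6366 CPM, with 9 of 12 lower. The falls were uneven, largest for Slc5a2, Miox and Slc34a1 (log2 fold changes -4.89, -3.39 and -2.22). Slc27a2, Slc5a12 and Hnf4a were not called (0.01, 0.18 and -0.24). The 8 collecting duct markers summed to between 1246 and 1765 CPM in control kidneys and to between 1940 and 3054 in FeD kidneys. Of these 8, 5 were higher and 2 lower. Of the other kidney cell markers, 3 of 4 of the distal tubule, 2 of 6 of the loop of Henle and 5 of 6 of the endothelium were lower. Of the podocyte markers, 1 of 5 was higher. Beside these counts, 22.4% of all tested genes were higher and 23.3% lower. Of 8 tested leukocyte markers, 4 were higher (Cd68 and Itgam at least 2-fold) and 2 were lower. The lower ones were Csf1r (log2 fold change -0.45) and, from few counts, Cd79a (-2.38). Of 5 tested muscle and fat markers, 1 was higher and 3 were lower. The part of these markers in the results below was not tested, and in a whole kidney fewer cells of a type cannot be told apart from less RNA per cell. Of 14 markers of red cells and their precursors, in which BNIP3L is known to clear mitochondria, the 6 globin genes were listed at 0 in every kidney; the list summed to between 25.9 and 66.3 CPM in control kidneys and to between 11.6 and 31.6 CPM in FeD kidneys, with 4 tested and 1 lower.

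Promoters of these genes were searched for ACGTG and GCGTG on both strands, the core letters of the element that HIF binds, because HIF is a known regulator of Bnip3. A promoter was taken as 250 bases before to 50 bases after the start of the gene (RefSeq, GRCm38.p6); promoters of 7 of the 9 genes were in the table. Of these 7, 4 held at least 1 match, beside 43.8% of 32851 promoters of mouse genes. A difference from that share was not tested over so few promoters. The promoters of Bnip3 and Map1lc3b, the genes with the most matches, are shown with the matches in capitals. The Bnip3 promoter (chr7:138909457-138909756, minus strand) held 3 matches to GCGTG and 1 CACGTG, which reads ACGTG on either strand and was found in 7.15% of promoters. The Map1lc3b promoter (chr8:121590188-121590487, plus strand) held 5 matches to GCGTG. At least 1 GCGTG was found in 32.4% of promoters, and the share of promoters with several matches was not counted. The promoters of Pink1 and Ulk1 held 1 GCGTG each, and those of Sqstm1 and Gabarapl1 held neither. The stretch taken for Fundc1 held neither as well. It contains what reads as the first coding bases of Fundc1, so much of it may lie inside the gene. Its lack of a match therefore says nothing of the bases before the gene, and the count over 7 promoters includes it.
Bnip3: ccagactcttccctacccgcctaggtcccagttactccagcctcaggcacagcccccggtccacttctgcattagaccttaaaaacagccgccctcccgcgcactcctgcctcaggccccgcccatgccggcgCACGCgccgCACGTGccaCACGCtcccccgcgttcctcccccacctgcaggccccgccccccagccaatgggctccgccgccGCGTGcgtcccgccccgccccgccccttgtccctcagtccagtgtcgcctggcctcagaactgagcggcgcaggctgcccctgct
Map1lc3b: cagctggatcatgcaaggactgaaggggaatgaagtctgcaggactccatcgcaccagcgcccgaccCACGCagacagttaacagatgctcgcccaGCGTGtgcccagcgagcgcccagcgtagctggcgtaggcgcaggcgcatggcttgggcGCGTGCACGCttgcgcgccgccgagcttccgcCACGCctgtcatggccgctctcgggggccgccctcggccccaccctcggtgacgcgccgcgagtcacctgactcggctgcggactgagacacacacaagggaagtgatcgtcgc

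In FeD kidneys, 5 of these 9 genes rose (Bnip3, Bnip3l, Ulk1, Map1lc3b and Sqstm1), and 4 did not pass an adjusted P of 0.05 (edgeR's quasi-likelihood test, Benjamini-Hochberg adjustment over all 15145 genes). Changes were widespread in these kidneys: 45.7% of all tested genes passed, 22.4% higher and 23.3% lower, so this count stands beside a high background, and it covers 9 of the 10 listed genes. Bnip3 was the only one of the 9 to change at least 2-fold as well, where 10% of all tested genes did (4.34% higher and 5.69% lower). FeD and control kidneys did not overlap in 5 of the 9 genes, against 58.1% of all tested genes. The median log2 fold change was 0.43 over the 9 genes and -0.0018 over all tested genes. With control kidney 1, 2 or 3 or FeD kidney 1 left out, 4 genes rose. With FeD kidney 3 left out, 6 genes rose (Pink1 in addition), and calls over all genes grew as well, from 3397 to 3937 higher and from 3527 to 3817 lower.

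**Figure D1:**
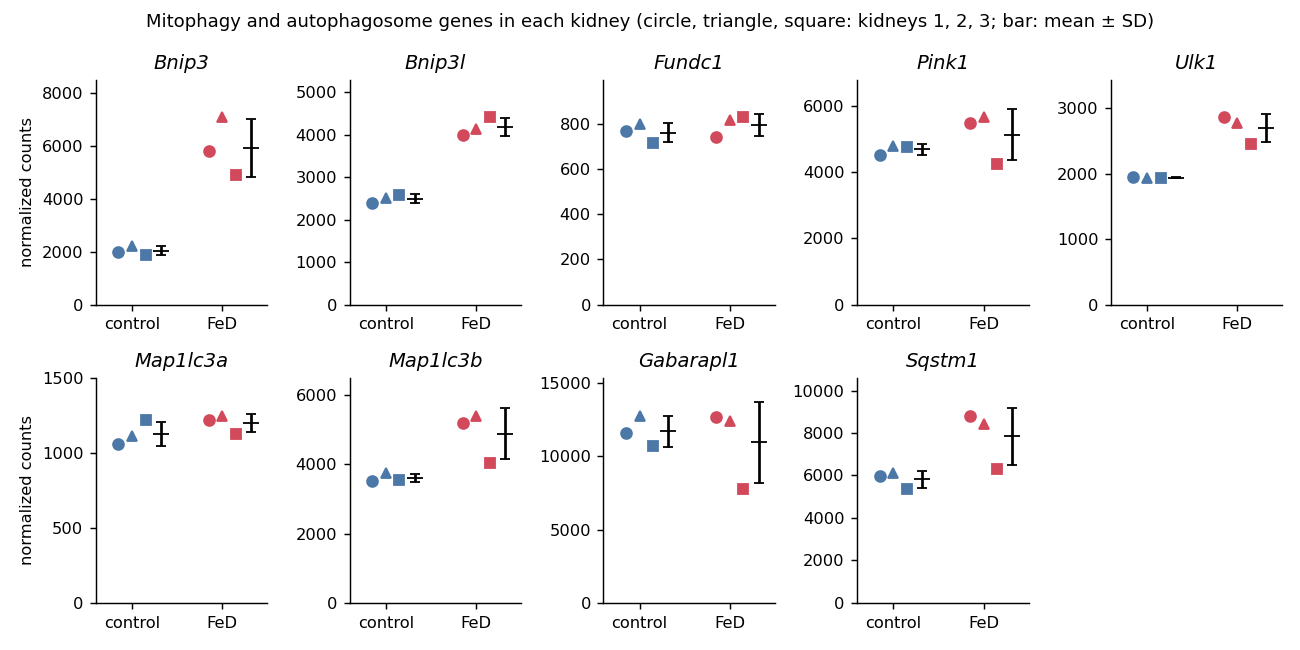
Normalized counts (vertical axis, starting at 0 and scaled separately for each gene) of the 9 genes in 3 control (blue) and 3 FeD (red) kidneys, with symbols for kidneys 1, 2 and 3 and bars for the mean ± SD. Every FeD kidney lay above every control kidney for Bnip3, Bnip3l, Ulk1, Map1lc3b and Sqstm1, and the FeD square (kidney 3) was the lowest FeD value in every gene but Bnip3l and Fundc1.

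The outer membrane receptors were led by Bnip3, located on chromosome 7 (146082519 to 146101202, minus strand, in mm9 as for all gene positions here). Raw counts were 2071, 2013 and 2125 in control kidneys and 5827, 5467 and 5665 in FeD kidneys. Scaled for library size by edgeR's TMM method (normalized counts), Bnip3 stood between 1891 and 2227 in control kidneys and at 5826, 7098 and 4890 in FeD kidneys 1, 2 and 3. The groups were far apart, and FeD kidney 2 was the highest. The mean was 2034 ± 173 in control and 5938 ± 1108 in FeD kidneys (SD, n = 3), a 2.92-fold rise (log2 fold change 1.55, standard error 0.13, adjusted P = 0.00011, edgeR with Benjamini-Hochberg adjustment). Only 4.9% of all tested genes had a larger change in either direction. Windows of 100 bases in its transcripts recurred elsewhere in the genome or in other protein-coding transcripts for 28.8% of windows, and reads from these can be missing from the counts if multiply mapped reads were dropped.

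Bnip3l (chromosome 14, 67604076 to 67627714, minus strand), the closest relative of Bnip3, rose as well but by less. It had 2393, 2505 and 2587 normalized counts in control kidneys and 3997, 4146 and 4412 in FeD kidneys. The kidneys of each group lay close together, and the lowest FeD kidney was well above the highest control kidney. The rise was 1.68-fold, from 2495 ± 97.6 to 4185 ± 210 (SD, n = 3; log2 fold change 0.75, standard error 0.06, adjusted P = 0.00011, edgeR). Of its windows, 20.9% recurred elsewhere.

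The log2 ratio of the counts of Bnip3 to those of Bnip3l, taken within each kidney, compared the change of these receptors. It was -0.27, -0.17 and -0.45 in control kidneys and 0.54, 0.78 and 0.15 in FeD kidneys, and every FeD kidney was above every control kidney. The sign of this ratio depends on transcript length: per length, Bnip3 was above Bnip3l in every kidney of both groups. The mean difference was 0.79, with an exact two-sided permutation P of 0.1, the smallest that 3 kidneys against 3 allow, and 0.125 after adjustment over the 5 ratios tested.

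Fundc1 (chromosome X, 17133690 to 17149451, minus strand), a receptor known from hypoxic mitophagy that is controlled by phosphorylation, did not pass the test. It had 714 to 801 normalized counts in control kidneys and 741 to 830 in FeD kidneys, and the groups overlapped. The log2 fold change was 0.06, with a 95% interval from -0.13 to 0.25 (adjusted P = 0.55, edgeR), an interval that lay wholly below the change of either BNIP3 family gene.

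Pink1 (chromosome 4, 137869324 to 137882222, minus strand), the kinase that senses damaged mitochondria, had 4504, 4795 and 4765 normalized counts in control kidneys and 5474, 5655 and 4237 in FeD kidneys. FeD kidneys 1 and 2 were above every control kidney, and FeD kidney 3 was below every control kidney. The log2 fold change was 0.13 (95% interval -0.12 to 0.38, adjusted P = 0.37, edgeR), and without FeD kidney 3 it was 0.26 and passed (adjusted P = 0.0054, edgeR).

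Ulk1 (chromosome 5, 111213507 to 111239116, minus strand), the kinase at the head of the pathway, rose. Its 3 control kidneys were almost identical, at 1947, 1938 and 1929 normalized counts, and its FeD kidneys stood at 2866, 2781 and 2460. All FeD kidneys were above all control kidneys. The mean rose from 1938 ± 9.05 to 2703 ± 214 (SD, n = 3), 1.39-fold (log2 fold change 0.48, standard error 0.07, adjusted P = 0.00095, edgeR). Of the Ulk1 windows, 6.77% recurred elsewhere. Its relative Ulk2, at 1149 ± 54.0 and 1078 ± 163, did not pass (adjusted P = 0.52, edgeR). The log2 ratio of Ulk1 to Ulk2 was 0.71, 0.83 and 0.72 in control kidneys and 1.51, 1.53 and 0.96 in FeD kidneys, without overlap (difference 0.58, exact two-sided permutation P = 0.1, 0.125 over the 5 ratios).

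Among the ATG8 genes, Map1lc3b rose, and Map1lc3a and Gabarapl1 did not pass. Map1lc3b (chromosome 8, 124114368 to 124121947, plus strand) encodes the LC3 protein most often used to mark autophagosomes. It had 3531, 3750 and 3560 normalized counts in control kidneys and 5200, 5413 and 4049 in FeD kidneys. FeD kidney 3 was the nearest to the control kidneys but did not overlap them. The mean rose from 3614 ± 119 to 4887 ± 734 (SD, n = 3), 1.35-fold (log2 fold change 0.44, standard error 0.11, adjusted P = 0.012, edgeR). With a kidney left out, Map1lc3b still passed, but the highest adjusted P was 0.048 in the same edgeR test, close to the threshold. Of its windows, 26% recurred elsewhere.

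Map1lc3a (chromosome 2, 155102033 to 155103809, plus strand), which encodes another LC3 protein, had 1059 to 1219 normalized counts in control kidneys and 1132 to 1252 in FeD kidneys, with overlap. Its log2 fold change was 0.09 (95% interval -0.09 to 0.26, adjusted P = 0.38, edgeR). The log2 ratio of Map1lc3a to Map1lc3b was between -1.75 and -1.55 in control kidneys and between -2.11 and -1.84 in FeD kidneys, without overlap (difference -0.34, exact two-sided permutation P = 0.1, 0.125 over the 5 ratios).

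Gabarapl1 (chromosome 6, 129483218 to 129492349, plus strand), of the GABARAP branch, was the most abundant of the genes. It had 11616, 12795 and 10709 normalized counts in control kidneys and 12691, 12415 and 7790 in FeD kidneys. FeD kidneys 1 and 2 lay within the control range, and FeD kidney 3 lay below it. The log2 fold change was -0.09 (95% interval -0.50 to 0.31, adjusted P = 0.69, edgeR), and its sign turned to 0.11 without FeD kidney 3. The log2 ratio of Gabarapl1 to Map1lc3b was between 1.59 and 1.77 in control kidneys and at 1.29, 1.20 and 0.94 in FeD kidneys, so that every FeD kidney was below every control kidney (difference -0.55, exact two-sided permutation P = 0.1, 0.125 over the 5 ratios).

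Levels of different genes were compared per length, as reads normalized to exon length and library size (RPKM). Such levels depend on the exon lengths used here, as the annotation used for counting is not known. They also depend on windows that recur elsewhere, 26% for Map1lc3b and 0% for Map1lc3a and Gabarapl1. Gabarap and Gabarapl2 were not searched for such windows. Over the 5 ATG8 genes (Gabarap and Gabarapl2 in addition to the 3 described), Map1lc3b held 15.9%, 15.5% and 16.3% of the summed RPKM in control kidneys and 20.8%, 21.6% and 22.0% in FeD kidneys. Its share was thus higher in every FeD kidney, FeD kidney 3 included. Gabarapl1 held 49.9% ± 2.11 of the sum in control and 46.1% ± 4.45 in FeD kidneys (SD, n = 3), and these ranges overlapped. Gabarap had 5266 ± 213 and 4681 ± 338 normalized counts (adjusted P = 0.098, edgeR), and Gabarapl2 had 1682 ± 75.3 and 1678 ± 62.5 (adjusted P = 0.97, edgeR).

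**Figure D2:**
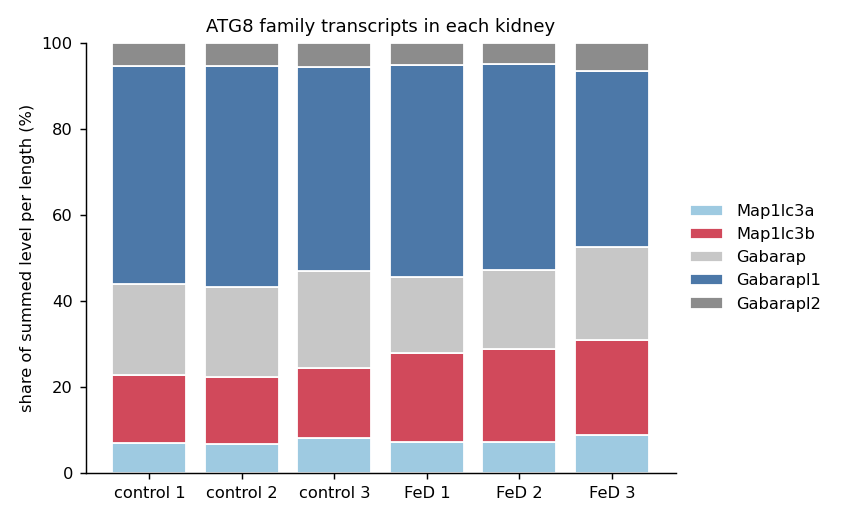
Share of each of the 5 ATG8 genes in their summed level per length (percent, vertical axis) in each kidney (bars). The Map1lc3b segment holds 15.5% to 16.3% in control kidneys and 20.8% to 22.0% in FeD kidneys, and Gabarapl1 is the largest segment in every kidney.

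Sqstm1 (chromosome 11, 50012868 to 50024329, minus strand) encodes p62, a receptor that carries ubiquitin-tagged cargo, mitochondria included, to the autophagosome and is degraded along with it. It had 5961, 6097 and 5376 normalized counts in control kidneys and 8821, 8401 and 6318 in FeD kidneys. The groups did not overlap, although FeD kidney 3 came close to the highest control kidney. The mean rose from 5811 ± 383 to 7847 ± 1341 (SD, n = 3), 1.35-fold (log2 fold change 0.43, standard error 0.13, adjusted P = 0.023, edgeR). The call was lost when control kidney 1, 2 or 3 or FeD kidney 1 was left out, with adjusted P values of 0.060, 0.056, 0.091 and 0.062 in the same edgeR test. Of the Sqstm1 windows, 16.1% recurred elsewhere. An antisense gene, 3010026O09Rik, overlaps 17.3% of the Sqstm1 exon sequence, so reads of these genes may be mixed. This antisense gene had 230 ± 24.6 and 305 ± 79.6 normalized counts. Nbr1, a receptor related to Sqstm1, rose as well, from 4171 ± 149 to 5492 ± 180 (log2 fold change 0.40, adjusted P = 0.0017, edgeR). The log2 ratio of Sqstm1 to Nbr1 overlapped between the groups (difference 0.02, exact two-sided permutation P = 0.9, 0.9 over the 5 ratios), and its sign depended on which kidney was left out.

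**Figure D3:**
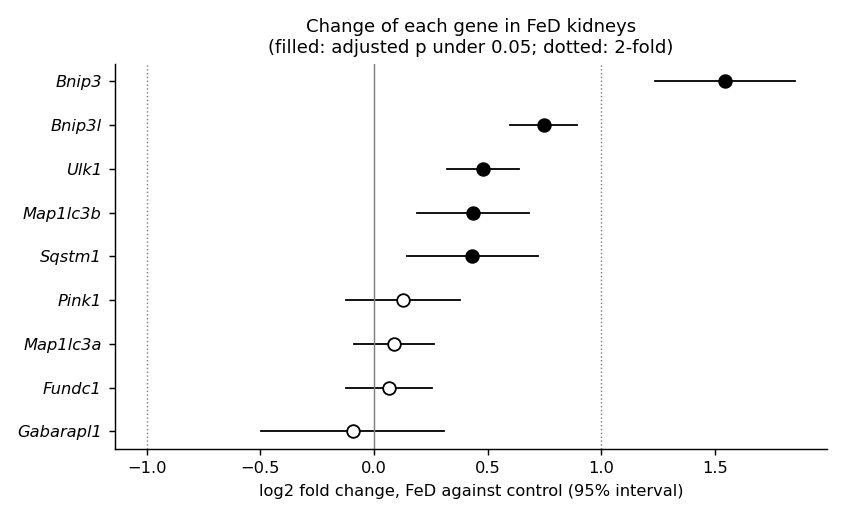
Log2 fold change of each of the 9 genes in FeD against control kidneys (horizontal axis) with its 95% interval (line), filled where the adjusted P is under 0.05; dotted lines mark a 2-fold change. Bnip3, at 1.55, lies apart from the other genes, which range from -0.09 for Gabarapl1 to 0.75 for Bnip3l.

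The order of the genes by RPKM changed at Bnip3. In control kidneys the order of the 9 genes was Gabarapl1 (371 ± 33.2 RPKM, SD, n = 3), Map1lc3b (118 ± 3.89), Pink1 (98.2 ± 3.34), Sqstm1 (97.0 ± 6.39), Map1lc3a (53.6 ± 3.85), Bnip3 (50.3 ± 4.29), Bnip3l (36.2 ± 1.42), Ulk1 (20.8 ± 0.097) and Fundc1 (18.3 ± 1.05). The ranges of Pink1 and Sqstm1 overlapped, as did those of Map1lc3a and Bnip3, and other neighbours did not overlap. In FeD kidneys Bnip3, at 147 ± 27.4 RPKM, had moved from place 6 to place 3 and overlapped with Map1lc3b (160 ± 24) and Sqstm1 (131 ± 22.4), and Sqstm1 with Pink1 (107 ± 16.2). Bnip3l, at 60.7 ± 3.05 RPKM, had moved from place 7 to place 6 and overlapped with Map1lc3a (57.0 ± 2.96).

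For Bnip3, the gene with the largest rise, the genes with the nearest profile over the 6 kidneys were found by the root mean square difference of centred log2 CPM. They were Gm3704 (difference 0.091), Wdr92 (0.091) and Crispld2 (0.094), with log2 fold changes of 1.60, 1.54 and 1.66. Wdr92 had 1217 ± 33.8 and 3532 ± 721 normalized counts, again with FeD kidney 2 the highest at 4318, whereas Gm3704 had few counts (15.8 ± 2.76 and 48.3 ± 6.76). With 6 kidneys in 2 groups, such a profile is mostly the difference between the groups.

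The other genes of the pathway were examined in lists compiled by role. Among 11 other genes of initiation and nucleation, 5 rose and 0 fell at the same threshold, 45.5% of the list beside 45.7% of all tested genes in either direction and 22.4% higher. They were Rb1cc1 (log2 fold change 0.48), which encodes the scaffold of the ULK1 complex, Atg13 (0.36), another subunit of that complex, Pik3c3 (0.45), the lipid kinase that marks the nascent membrane, and Nrbf2 and Atg14, both linked to that kinase. The adjusted P values of Rb1cc1, Atg13 and Pik3c3 were 0.0014, 0.0034 and 0.0035 (edgeR). The median log2 fold change of this list was 0.06, and 3 genes rose without control kidney 3. Among 11 genes that supply or bind the growing membrane, 6 rose and 0 fell (54.5% called), with a median of 0.27. Vmp1, which encodes a lipid scramblase of the endoplasmic reticulum, rose from 2222 ± 99.7 in control to 4152 ± 678 in FeD kidneys (log2 fold change 0.90, adjusted P = 0.00056, edgeR), and Atg9b rose 3.24-fold from a low level, 9.70 ± 0.919 to 31.8 ± 8.06. Nos3 covers part of Atg9b on the opposite strand, and Mir21 covers 2.38% of the Vmp1 exon bases on the same strand, so reads may be mixed. Zfyve1 and Atg2b rose by 0.48 and 0.46 on the log2 scale.

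Of 13 other ATG8 and conjugation genes, 3 rose and 3 fell (46.2% called, close to the 45.7% of all tested genes), with a median of -0.01. Atg4a, a protease that trims ATG8 proteins, rose by 0.65 on the log2 scale (adjusted P = 0.0011, edgeR), and Atg16l2, a relative of the conjugation scaffold Atg16l1, fell by 0.73 (adjusted P = 0.0028, edgeR). Atg12 rose by 0.30. These counts were unstable, with 1 gene higher without control kidney 2 or 3 and 1 gene lower without control kidney 1, control kidney 3 or FeD kidney 3.

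Among 11 other cargo receptors, 5 rose and 2 fell (63.6% called), and the only 2-fold changes were rises of Ncoa4 and Fam134b. Ncoa4, the receptor that delivers the iron store ferritin to autophagosomes, stood at 3564, 3570 and 3402 normalized counts in control kidneys and at 8547, 8517 and 9353 in FeD kidneys. The kidneys of each group lay close together and far from the other group, FeD kidney 3 included. The mean rose from 3512 ± 95.2 to 8806 ± 474 (SD, n = 3), 2.51-fold (log2 fold change 1.33, standard error 0.07, adjusted P = 1.6e-05, edgeR). Fam134b, a receptor for the endoplasmic reticulum, rose from 2390 ± 110 to 5316 ± 733 (log2 fold change 1.15, adjusted P = 0.00012, edgeR), and Calcoco1 rose by 0.51 on the log2 scale. The median of this list was 0.15, and 1 gene rather than 2 was lower without any one control kidney or FeD kidney 2.

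Of 24 other mitophagy genes, 3 rose and 9 fell (50% called, near the 45.7% of all tested genes, of which 23.3% fell), with a median log2 fold change of -0.12; 5 fell without control kidney 2 or 3. Those that rose were Smurf1 (0.64, adjusted P = 0.00017, edgeR), a ubiquitin ligase, Tbk1 and Rheb. Mfn2, which encodes a fusion protein of the outer mitochondrial membrane, fell from 3347 ± 259 to 2264 ± 89.4 (log2 fold change -0.56, adjusted P = 0.00056, edgeR), and Atpif1, which encodes an inhibitor of ATP hydrolysis, fell from 4448 ± 181 to 3241 ± 212 (log2 fold change -0.46, adjusted P = 0.0014, edgeR). Fkbp8, an outer membrane receptor, fell as well (log2 fold change -0.41). Of further genes of this list, Bcl2l13, Phb2 and Fundc2 had log2 fold changes of 0.05, -0.29 and -0.04, and of these Phb2 passed.

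Nuclear genes of mitochondria fell in the main. Of 23 such genes, 16 fell and 2 rose (Tomm20 and Ppargc1a), a share of 78.3% in either direction beside 45.7% of all tested genes, and their median log2 fold change was -0.35. Esrra, which encodes a regulator of mitochondrial genes, fell from 2396 ± 255 to 1094 ± 148 (log2 fold change -1.13, adjusted P = 0.00017, edgeR). Sdhb and Sdha, subunits of complex II, fell by 0.68 and 0.61 on the log2 scale. These genes are abundant in the proximal tubule, whose markers mostly but unevenly fell in the same kidneys as given above. The part of the markers in this result was not tested.

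Of 32 upstream regulators, 14 rose and 3 fell (53.1% called, against 45.7% of all tested genes), and their median log2 fold change was 0.25. Ddit4, which encodes a HIF-induced inhibitor of the kinase complex mTORC1, had 724, 695 and 811 normalized counts in control kidneys and 3333, 3250 and 2687 in FeD kidneys. FeD kidney 3 was the lowest but far above the control kidneys. The mean rose 4.15-fold (log2 fold change 2.05, standard error 0.10, adjusted P = 1.0e-05, edgeR). Trp53inp1, a p53 target whose protein binds LC3, rose from 948 ± 117 to 3093 ± 449 (log2 fold change 1.71, adjusted P = 5.2e-05, edgeR), and Ddit4l, a relative of Ddit4, rose by 1.18 on the log2 scale. Foxo3, which encodes a transcription factor with Bnip3 and Map1lc3b among its known targets, rose from 578 ± 46.1 to 1018 ± 29.7 (log2 fold change 0.82, adjusted P = 0.00020, edgeR). Those that fell were Trp53inp2, Tsc2 and Tfeb, which encodes a master regulator of lysosomal genes (log2 fold change -0.57, adjusted P = 0.0026, edgeR). Without FeD kidney 2, 14 rose and 5 fell, and without FeD kidney 3, 15 rose and 6 fell.

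Of 17 genes of fusion and the lysosomal membrane, 4 rose and 0 fell, 23.5% of the list, where 45.7% of all tested genes were called and 22.4% were higher, with a median of 0.10. Stx17, the syntaxin of the autophagosome, rose from 739 ± 21.6 to 1141 ± 158 (log2 fold change 0.62, adjusted P = 0.0018, edgeR), and Vps16 and Vps11, subunits of the tethering complexes, rose by 0.47 and 0.42. Of 19 HIF targets other than Bnip3, 8 rose and 1 fell, 47.4% called in either direction, with a median of 0.35. Of all tested genes, 45.7% were called, 22.4% higher and 23.3% lower. Ankrd37, Kdm3a and Egln3 had the smallest P values, with log2 fold changes of 2.42, 0.96 and 1.23. Eno2 and Hk2 also rose at least 2-fold (1.74 and 1.20), and Car9 fell (log2 fold change -0.91). The other 10 HIF targets were not called, with log2 fold changes from -0.15 for Pfkfb4 to 0.37 for P4ha2. Among these were Vegfa (-0.12), Pgk1 (-0.03), Ldha (0.28) and Slc2a1 (0.35). Of 7 tested iron response genes, listed as a check of the diet, 2 rose and 2 fell, 57.1% called beside 45.7% of all tested genes. Tfrc, which encodes the transferrin receptor, fell by 0.47 on the log2 scale. The study reported a rise of this gene in another setting, the duodenum and liver of pregnant dams on the low-iron diet. Slc40a1, Slc11a2 and Ftl1 were not called (log2 fold changes 0.15, -0.03 and -0.10). Aco1 fell by 0.71 and Ireb2 rose by 0.45. Fth1, which encodes the ferritin heavy chain, also rose (log2 fold change 0.36), and 1 gene rather than 2 rose without any one control kidney.

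**Figure D4:**
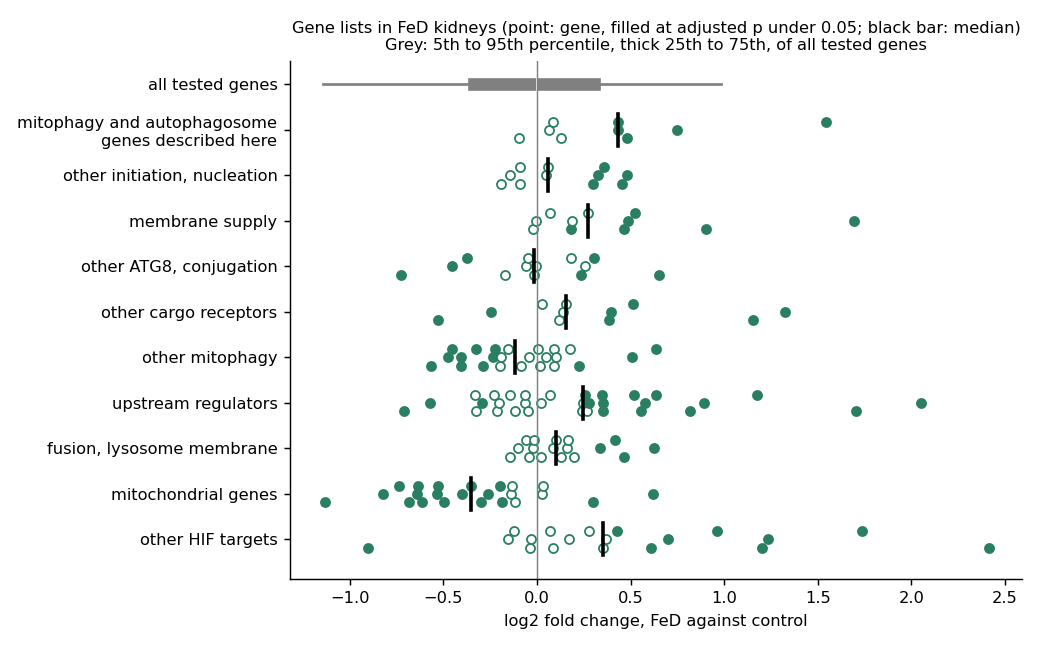
Log2 fold change in FeD against control kidneys (horizontal axis) of the genes of each list (points, filled at an adjusted P under 0.05) with the list's median (black bar), below the spread of all tested genes (grey). The median of the mitochondrial genes lies at -0.35 and that of the 9 mitophagy and autophagosome genes at 0.43.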

How the data were processed

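RNA-seq of 3 control and 3 FeD kidneys was analysed. Per the labels and the methods of the study, the authors made TruSeq libraries from polyadenylated RNA, processed reads with CASAVA 1.8.2, trimmed them with Trimmomatic, aligned them to mm9 with TopHat2 2.0.11 and counted reads per gene with HTSeq. The deposited values are raw counts per gene symbol, not normalized and not pooled. The annotation, strand setting and treatment of multiply mapped reads are not given in the sources used here.

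Counts were filtered with filterByExpr, scaled by TMM and tested with edgeR 4.0.16 (glmQLFit, glmQLFTest) in R 4.3.3, with Benjamini-Hochberg adjustment over 15145 genes. A gene was called at an adjusted P under 0.05; a change of at least 2-fold was counted separately. Standard errors are the log2 fold change divided by the square root of F. Normalized counts are counts per TMM-adjusted library, set to the average library. A floor of 3 counts corresponds to 0.144 to 0.218 CPM and covers counting error only. Ratios within kidneys were tested by exact permutation. Gene positions, exon lengths, overlaps and 100-base windows came from GENCODE vM1 (NCBIM37, the assembly of mm9); promoters came from RefSeq. The fits were tested on simulated counts. Alternatives were DESeq2 1.42.0 (size factors or its own test), library size alone, limma 3.58.1 (voom), other filters, globin and mitochondrial genes left out, the replicate number as a block, and each kidney left out.

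The members and lists were chosen with earlier results of these data known. Of the 10 listed members, 1 is not reported here, so counts and medians over the members cover 9; it stayed in the fit across all genes. Besides these 9, the text names in each list the 3 genes with the smallest P and every gene called with a 2-fold change, the nearest profiles of the member with the largest rise, and markers; other genes of the lists were named after their values were seen.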

Additional observations from a re-analysis of the deposited data

How the results depend on the processing

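The log2 fold changes of the 9 genes kept their direction and their side of the threshold in all 63 combinations of gene with 7 alternatives in normalization, filter, test or block, among them an edgeR fit with DESeq2 size factors. An eighth, leaving out globin and mitochondrial genes, changed no value and tested nothing. With each kidney left out in turn, 48 kept both, 4 no longer passed (Sqstm1), 1 newly passed (Pink1, log2 fold change 0.26 without FeD kidney 3) and 1 changed sign (Gabarapl1, from -0.09 to 0.11, without FeD kidney 3; its range was -0.20 to 0.11). Counts of called genes that moved over 1.5 times did so with a kidney left out. Over these 6 fits, the members called higher ranged from 4 to 6, initiation genes higher from 3 to 5 and lower from 0 to 1, conjugation genes higher from 1 to 4 and lower from 1 to 2, cargo receptors lower from 1 to 2, mitophagy genes lower from 5 to 9, regulators lower from 3 to 6 and iron genes higher from 1 to 3. The difference in the log2 ratio of Sqstm1 to Nbr1 ranged from -0.085 to 0.16, with values of -0.0017, -0.085 and -0.0065 without control kidney 3, FeD kidney 1 and FeD kidney 2.

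The replicate numbers come from the labels alone. Deviations of same-numbered kidneys correlated at -0.16, 0.000096 and -0.035, and kidneys did not in general correlate best with their own number, so the numbers were not taken as pairs. With the replicate number as a block, 5 members were higher, and 3100 and 3344 of all genes were called, against 3397 and 3527 without it. Depth did not limit the members, whose lowest raw count was 630.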
